A study of Saccharomyces cerevisiae with 26 samples.

Results

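Ribosome biogenesis and nucleolar protein genes were examined for A-rich positions that the study removed from its RNA 3′ end tracks. The set comprised 56 named genes of 6002 nuclear protein-coding genes, all matched by symbol to the R64 annotation, and all carried rRNA or ribosome terms there, while 54 also carried a nucleolar term (IMP3 and IMP4 did not). The genes were taken from a list of names and not from a measured value, although the list was drawn up when earlier results of these data were known. Of its genes, TMA23, CGR1 and FYV7, had stood out in those results, and several values are therefore also given without them. For each gene, the masked positions on its own strand were counted along the coding sequence and in a window of 200 bp that follows the stop codon. The other 5946 genes served as background.

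The study sequenced RNA 3′ ends of S. cerevisiae in 26 libraries from the strains Mex67-AA and Nab2-AA. Both are W303 anchor-away strains with tor1-1, a disrupted fpr1 and RPL13-2xFKBP12, with FRB fused to Mex67 or Nab2, and both carried a plasmid overexpressing the uridine permease FUI1 and were grown in -URA medium. Total RNA and RNA labeled for 2 min with 4-thiouracil (4tU) were used, together with mock IPs of unlabeled Mex67-AA cells. Each RNA was sequenced directly (pA+) or after in vitro polyadenylation with E. coli poly(A) polymerase (pA+,-), and 12 libraries came from cells that had received rapamycin for 15 min to deplete the tagged protein from the nucleus. None of these groups enters the values below, because the masked positions were listed from the genome sequence and hold no reads, no depth and no replicates. The counts are exact for this genome, so they carry no replicate error and no test was applied to them.

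Eukaryotic ribosomes are assembled from rRNA and ribosomal proteins in the nucleolus, where a large set of assembly factors modifies, cleaves and folds the precursor rRNA. Box C/D and box H/ACA snoRNPs place methyl groups and pseudouridines, the 90S particle or SSU processome forms the 40S precursor, and a succession of pre-60S particles forms the large subunit, with helicases and GTPases acting at single steps. Many of these proteins carry long charged tails rich in lysine and glutamate. Codons for both amino acids can be written with A and G alone. A dT primer can anneal to such A-rich stretches inside an RNA, and a read that starts there reports an internal site instead of a true 3′ end.

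Of the 80586 coding positions of the 56 genes, 6110 were masked on the sense strand, or 7.58%. The other genes had 3.04% masked, so that the share was 2.50 times higher in ribosome biogenesis genes. The median over genes was 7.94% against 2.60%, and 53 of the 56 genes lay above the median of the others. More than 5% was masked in 42 of the 56 genes, where 14.5% of all 6002 genes passed this mark. More than 10% was masked in 19 of them, where 1.75% of all genes did. In total 105 genes passed 10%, so these 19 made up 18.1% of them. Without TMA23, CGR1 and FYV7, the pooled share was 7.35% and the median 7.30%, with 39 of 53 genes above 5% and 16 above 10%. Under the criteria as written in the methods, which 2361 of the 6110 positions met, the share was 2.93% against 1.17% in the other genes. Then 9 of the 56 genes exceeded 5%, as did 1.21% of the other genes, and 0 exceeded 10%, as against 8 other genes, so the count above 10% holds for the deposited list and not for the written criteria. The shift thus involved most of the set, and the cumulative curve of the 56 genes lay to the right of that of the others over nearly its whole range.

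**Figure D1:**
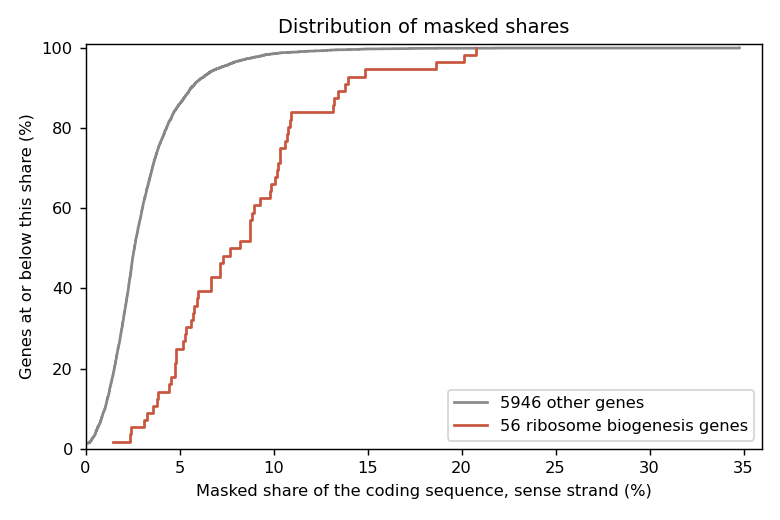
Cumulative distribution of the masked share of the coding sequence (x axis, percent of sense positions) for 56 ribosome biogenesis genes and 5946 other genes (y axis, percent of genes at or below that share). The medians were 7.94% and 2.60%, and the highest shares were 20.8% in the set and 34.8% among other genes.

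The longest masked runs are shown next, as extremes and not as typical masked positions. The median run of the set was 2 bp, and runs of at least 10 bp held 31.8% of its masked positions. In the sequences below, each printed 5′ to 3′ in frame from RefSeq R64 with its sacCer3 coordinates, capitals mark masked positions. The written criteria look at the bases downstream of a position. The end of NOP56, a core protein of box C/D snoRNPs, held the longest masked run among all nuclear coding sequences, at 82 bp, against 79 bp for the longest run among the other genes. In the 99 bp shown up to its stop codon, 85 positions were masked and 21 of 33 codons were lysine codons.
NOP56, chrXII:547513-547611, plus strand: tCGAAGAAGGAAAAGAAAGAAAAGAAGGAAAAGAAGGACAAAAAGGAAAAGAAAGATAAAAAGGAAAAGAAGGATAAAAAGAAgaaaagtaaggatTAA
CBF5, the pseudouridine synthase of box H/ACA snoRNPs, had a tail of the same make-up, with 107 of the last 225 bp masked and 35 lysine and 18 glutamate codons among 75.
CBF5, chrXII:507361-507585, plus strand: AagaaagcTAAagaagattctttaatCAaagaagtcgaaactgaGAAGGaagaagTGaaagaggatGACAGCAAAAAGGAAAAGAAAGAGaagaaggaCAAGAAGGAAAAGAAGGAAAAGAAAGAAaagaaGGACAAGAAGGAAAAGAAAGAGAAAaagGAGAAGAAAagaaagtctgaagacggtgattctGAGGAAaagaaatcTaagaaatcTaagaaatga
Both ends, of which that of CBF5 was chosen for display after its values were seen, hold glutamate and aspartate codons among their lysine codons.

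TMA23, which encodes a nucleolar protein, had the highest masked share of the set. In its last 255 bp, 114 positions were masked, and 35 of 85 codons were for lysine.
TMA23, chrXIII:804837-805091, plus strand: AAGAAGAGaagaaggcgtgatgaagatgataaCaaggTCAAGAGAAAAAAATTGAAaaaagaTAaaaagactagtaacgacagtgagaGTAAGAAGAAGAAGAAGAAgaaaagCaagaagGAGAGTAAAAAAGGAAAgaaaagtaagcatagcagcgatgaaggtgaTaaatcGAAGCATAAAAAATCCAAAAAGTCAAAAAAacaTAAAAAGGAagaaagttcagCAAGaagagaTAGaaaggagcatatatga
DBP3, a DEAD-box helicase of the 60S pathway, had such a stretch at the other end. Of its first 240 bp, 84 positions were masked, and 29 of 80 codons were for lysine.
DBP3, chrVII:361620-361859, minus strand: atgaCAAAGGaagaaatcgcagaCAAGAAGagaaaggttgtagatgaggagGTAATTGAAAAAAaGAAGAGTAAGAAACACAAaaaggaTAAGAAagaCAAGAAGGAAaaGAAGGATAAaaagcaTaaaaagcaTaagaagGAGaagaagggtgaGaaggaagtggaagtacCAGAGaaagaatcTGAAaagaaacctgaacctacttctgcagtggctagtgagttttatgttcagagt
In the deposited list, lysine was not required for a long run. In NOP53 and EBP2, which both act in 60S assembly, the longest runs of 36 bp and 29 bp covered successive glutamate codons. The stretches shown hold 12 glutamate codons each and 0 lysine codons. A repeat of GAA alone holds 4 As in 6 bp and 12 As in 18 bp. The criteria as written ask for more than these numbers, so they do not select such repeats.
NOP53, chrXVI:276639-276695, minus strand: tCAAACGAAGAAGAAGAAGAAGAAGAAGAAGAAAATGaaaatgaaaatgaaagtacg
EBP2, chrXI:126101-126151, plus strand: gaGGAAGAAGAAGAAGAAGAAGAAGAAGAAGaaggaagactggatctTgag
NOP7, also a 60S assembly factor, had a run of 39 bp in the middle of its coding sequence that mixes glutamate, lysine and glutamine codons. In KRI1, a 40S assembly factor, the run of 31 bp joins AGA arginine codons with lysine and glutamate codons.
NOP7, chrVII:696347-696403, plus strand: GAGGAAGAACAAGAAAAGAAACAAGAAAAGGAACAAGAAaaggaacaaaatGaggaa
KRI1, chrXIV:54977-55027, minus strand: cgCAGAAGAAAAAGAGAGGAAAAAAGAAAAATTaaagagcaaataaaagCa
At the lower end, IMP3, an SSU processome protein, had a longest run of 3 bp, next to a pair of lysine codons.
IMP3, chrVIII:393570-393593, plus strand: tTGAaaaaagtagacttccttgaa

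By role, the 60S assembly factors had the highest pooled share, 10.2%, with a median of 10.1% over 18 genes, while the 5 snoRNP proteins had the highest median, 10.4%, with a pooled share of 8.11%. Of the 60S factors, 10 exceeded 10%. CGR1 led them with 73 of 363 positions, or 20.1%, and ranked 5 among all 6002 genes. It was followed by RRP14 with 14.9%, RRP15 with 13.9%, EBP2 with 13.8%, NOP53 with 13.5% and LOC1, which also takes part in mRNA localization, with 13.2%. NOP12, NOP16, RLP24 and NOP7 had between 10.1% and 10.7%. RRP17 and NOP15 lay just below that mark, with 9.89% and 9.80%. At the other end, MAK16 had 4.78% and NIP7 2.38%, below the median of other genes.

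The 40S assembly factors had a median of 6.32% over 18 genes and ranged from 1.45% to 18.6%. FYV7 had 18.6% of its 456 bp masked, KRI1 13.2% and RRP36 10.7%, and no other gene of this group passed 10%. ESF2, ESF1, NOP14 and SAS10 followed with 9.25%, 8.96%, 8.88% and 8.73%. RRP5, an RNA-binding protein of both subunit pathways with the longest coding sequence of the set, had 246 masked positions in 5190 bp, or 4.74%. ENP1 had 3.58%, RRP12 3.12% and IMP3 1.45%. IMP3 was the 1 gene of the set below 2%, where 31.6% of all genes lay. IMP3 and IMP4 both join MPP10 in the SSU processome, and these 3 genes had 1.45%, 3.78% and 5.27% masked.

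The snoRNP proteins fell into separate levels. CBF5, NOP56 and NOP58 had 11.0%, 10.9% and 10.4%, whereas RRP9, a U3 snoRNP protein, had 4.53% and NOP1, the methyltransferase of box C/D snoRNPs, had 2.44%. NOP1 binds the same particle as NOP56 and NOP58 but had 24 masked positions in 984 bp. Of the rRNA methyltransferases, RRP8 had 10.6%, SPB1 7.17% and NOP2 5.71%. The 6 DEAD-box helicases had a median of 5.76%, from 10.2% in DBP3 to 4.41% in HAS1. The GTPases had the lowest median, 5.18%, and the lowest pooled share, 4.67%, with 5.95% in NOG2, the single gene of the set with an intron, 5.18% in NUG1 and 3.29% in NOG1. Among the remaining nucleolar proteins, TMA23 had 132 of 636 positions masked, or 20.8%, NSR1, a nucleolin-like protein, 8.76% and SRP40, a serine-rich protein, 3.85%. The role groups are small and overlap, so no order between neighboring groups is drawn from them.

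**Figure D2:**
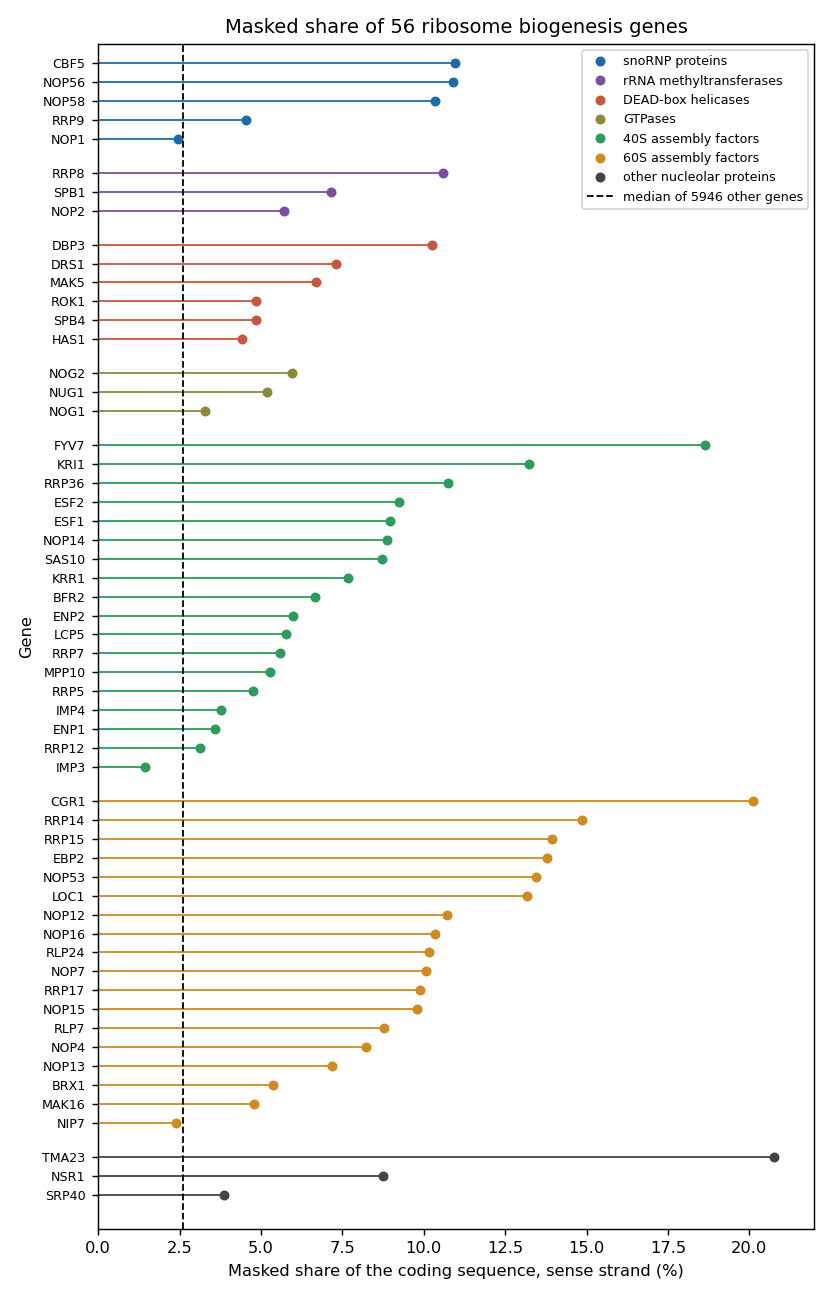
Masked share of the coding sequence on the sense strand (x axis, percent) for each of the 56 genes, grouped by role and sorted within each role. The dashed line is the median of the 5946 other genes, 2.60%. IMP3, NIP7 and NOP1 are the genes to its left, and TMA23, CGR1 and FYV7 reach 18.6% or more.

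For decay rates that set transcription against total RNA, the study scaled gene body signal by an effective length without masked positions. The same correction was computed here for coding sequences, which stand in for gene bodies because the transcript boundaries used by the study were not used here. The median ratio of full to effective length was 1.09 for the 56 genes and 1.03 for the other genes. It was highest for TMA23, at 1.26, where 504 of 636 bp remained. CGR1 kept 290 of 363 bp (1.25) and FYV7 371 of 456 bp (1.23). RRP14 had a ratio of 1.17 and IMP3 1.01. A density divided by full length would accordingly be lower than one divided by effective length by these factors.

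The masked positions were next placed along the coding sequence, divided into 5 parts of equal length. Pooled over the 56 genes, 8.19% of the first part was masked, 6.06% of the second, 4.83% of the third, 7.19% of the fourth and 11.6% of the last. In the other genes the same parts had 2.88%, 2.79%, 2.88%, 3.02% and 3.59%. The last part held 30.7% of all masked positions of the set. It exceeded the middle 3 parts together by 5.62 percentage points, against 0.693 in the other genes. The first part exceeded them by 2.16 percentage points, whereas in the other genes it differed by -0.0187. NOP56, NOP58, CBF5 and TMA23 had the highest shares in the last part, so a lower excess without them follows from the choice. Without these genes, the excess of the last part was 3.40 percentage points and that of the first part 2.33. Without TMA23, CGR1 and FYV7, they were 5.61 and 2.38.

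More than 10% of the last part was masked in 29 of the 56 genes, where 7.21% of all genes passed this mark, and more than 10% of the first part in 19, where 4.37% did. The last part was the most densely masked one in 25 genes (28.4% of all genes), the first part in 17 (17%) and a middle part in 14 (49.9%). The highest shares in the last part were 44.2% in NOP56, 44.1% in TMA23, 43.3% in NOP58 and 39.3% in CBF5. The middle part of each of NOP56, NOP58 and CBF5 had 1.65% or less, so their masked positions were concentrated at the carboxy-terminal end. The highest shares in the first part were 27.6% in DBP3, 27.6% in EBP2, 21.6% in RRP8 and 21.4% in NOP16. Other genes followed neither pattern. LOC1 had 39.0% in the fourth part and 7.32% in the last, and NOP53 and KRI1 also peaked in the fourth part, with 28.8% and 28.7%. FYV7 had 31.9% in its middle part and 1.10% in its last.

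**Figure D3:**
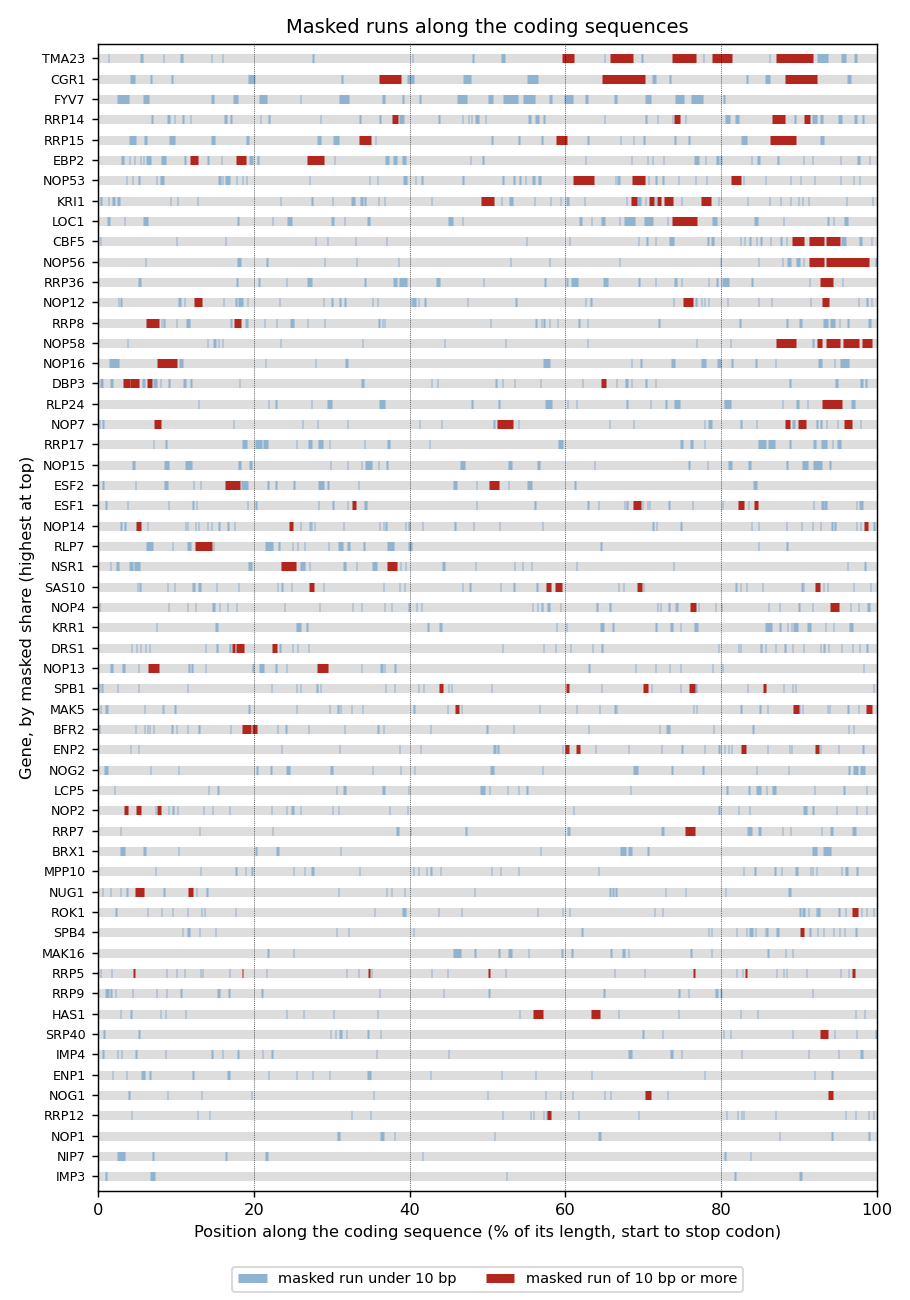
Masked runs along the coding sequence of each of the 56 genes, from start to stop codon (x axis, percent of its length), with the genes in order of masked share. Runs of 10 bp or more are dark and shorter runs light. The long runs of NOP56, NOP58 and CBF5 lie beyond 80% of the length, and the longest of DBP3 near its start. Runs of 10 bp or more are present in 41 of the 56 genes. Those without one include IMP3 and NIP7, with low shares, but also FYV7, with a high share.

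Run lengths were compared in the same way, for the deposited list only. The 56 genes held 1707 masked runs with a median of 2 bp, as in the other genes. Runs of at least 10 bp were 6.68% of their runs and held 31.8% of their masked positions, against 2.49% and 14.8% in the other genes. A run of at least 10 bp was present in 41 of the 56 genes, where 29.3% of all genes had one, and a run of at least 20 bp in 20, where 6.51% did. Runs of at least 30 bp were found in 6 of the 56 genes (1.17% of all genes), namely NOP56, NOP58, NOP7, NOP53, KRI1 and TMA23. Among the 20 genes with a run of at least 20 bp, the codons covered by the longest run and the 6 bp after it included more lysine than glutamate codons in 11, more glutamate than lysine codons in 7 and equal numbers in 2. NSR1 was among the second kind, with 8 glutamate codons and 1 lysine codon. CGR1 and FYV7 reached high shares with longest runs of 20 bp and 9 bp. CGR1 had at least 9.59% masked in each of the 5 parts, and FYV7 at least 16.5% in the first 4.

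Lysine codons were counted because lysine-rich tails are known for these proteins. They made up a median of 11.7% of the codons in the 56 genes and 7.28% in the other genes, and ranged from 5.50% in NOP1 to 23.7% in TMA23. Along the coding sequence, the lysine share of the set was 12.6% in the first part, 9.61% in the middle part and 16.3% in the last, and 7.11%, 7.20% and 7.90% in the other genes. In NOP58 it was 39.2% in the last part and 2.94% in the middle part. Glutamate codons had a median of 10.2% against 6.21%, at 10.3% in the first part, 11.5% in the second, 8.53% in the middle part, 10.3% in the fourth and 10.1% in the last. In the other genes it went from 6.04% in the first part to 7.13% in the last. Across the 6002 genes, the masked share rose with the lysine share by 0.579 percentage points for each percent of lysine codons (least squares, Pearson's r = 0.721, Spearman's rho = 0.684). Within the 56 genes, r was 0.925 and rho 0.899. These correlations are across genes, which are not independent replicates, and both measures are read from the same bases, so no p-value was attached.

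The fitted line is straight, with an intercept of -1.20, a share that cannot occur, and so only approximates the relation. No comparison was made with other genes of similar lysine share. Most genes of the set lay above this line. Their median residual was 2.00 percentage points, and 48 of the 56 had a positive one, where 44.7% of all genes did. The largest were 8.28 for CGR1, 8.23 for TMA23, 7.18 for FYV7 and 6.01 for KRI1. CGR1, TMA23 and FYV7 had 22.5%, 23.7% and 21.9% lysine codons, against a median of 11.7% in the set. The lowest were -3.05 for IMP3, -1.22 for NIP7, -0.70 for NOG1 and -0.33 for ROK1. IMP3 had 9.84% lysine codons and NSR1 9.18%, yet 1.45% and 8.76% of their coding sequences were masked. With glutamate codons added to the fit, the median residual of the set was 1.47 percentage points. Without TMA23, CGR1 and FYV7 it was 1.86. Under the criteria as written it was 0.48.

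**Figure D4:**
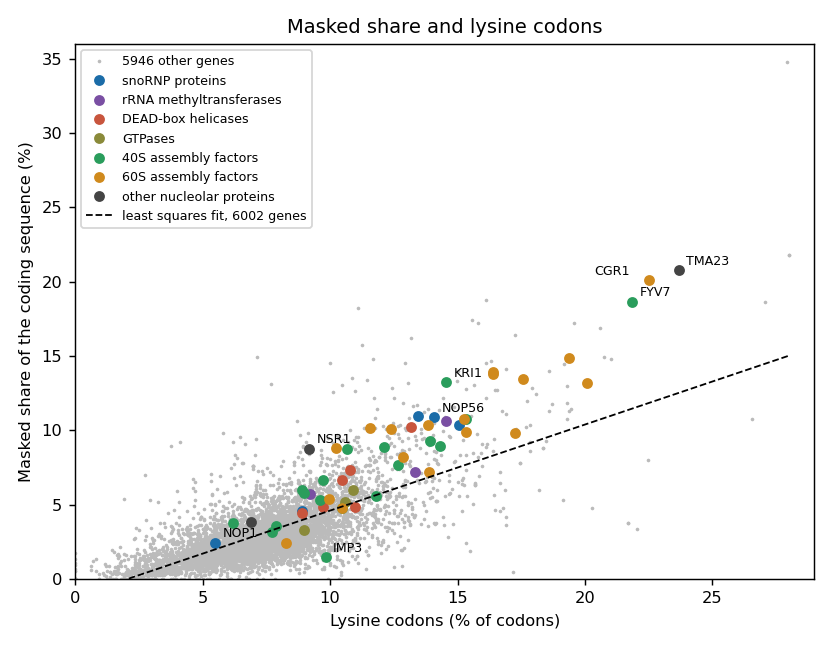
Masked share of the coding sequence (y axis, percent) against the share of lysine codons (x axis, percent of codons) for 56 ribosome biogenesis genes, colored by role, and 5946 other genes in grey. The dashed line is the least squares fit over all 6002 genes, with a slope of 0.579, and 48 of the 56 genes lie above it.

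The codons after masked positions were compared between both sets of genes. The 6 bp after a masked position touched a lysine codon in 73.8% of cases in the 56 genes and 71.9% in the other genes, and at least 2 lysine codons in 29.8% and 21.6%. A glutamate codon was touched in 49.6% and 47.3%. In the genes of the set without introns, each of the 517 adjacent lysine codon pairs directly followed a masked base of the deposited list. All 18142 such pairs in the other genes did so too, and this value does not separate the sets. Under the criteria as written, 8 of the 155 AAGAAG pairs of the set followed a masked base. For glutamate followed by glutamate, 61.8% of 469 pairs were preceded by a masked base, against 50.1% in the other genes, and for lysine followed by aspartate 6.18% of 178 pairs were, against 1.75% in the other genes. Lysine pairs were present at 1.95 per 100 codons in the set and 0.665 in the other genes.

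The mask is strand-specific, and the antisense strand of the same coding sequences had 0.681% masked, against 1.02% in the other genes. The sense share was the higher one in 56 of 56 genes, where 85.2% of all genes showed this order. Antisense shares ranged up to 3.36% in SRP40 and 2.09% in NOP7, while CGR1, TMA23, RRP14, RRP17 and RRP7 had no masked antisense position.

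The 200 bp after the stop codon differed from the coding sequence. There, 559 of 11200 positions were masked, or 4.99%, against 4.49% in the other genes, and the median was 5.5 masked positions per gene against 5. Without TMA23, CGR1 and FYV7, the share was 4.93%. With a window of 100 bp, the order turned, at 4.48% against 4.54%, so no difference between the sets is drawn from this region. The windows of the 56 genes did not meet another coding sequence on the same strand. Over the 200 bp before the end of the stop codon, bins of 50 bp had between 13.6% and 15.5% masked in the set, and the first 50 bp after it 5.18%. In the other genes of at least 300 bp, the last bin before the end of the stop codon had 4.74% and the first after it 4.53%. The higher share was present in 17 of the 56 genes after the stop codon rather than in the coding sequence, where 47.7% of all genes showed this.

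**Figure D5:**
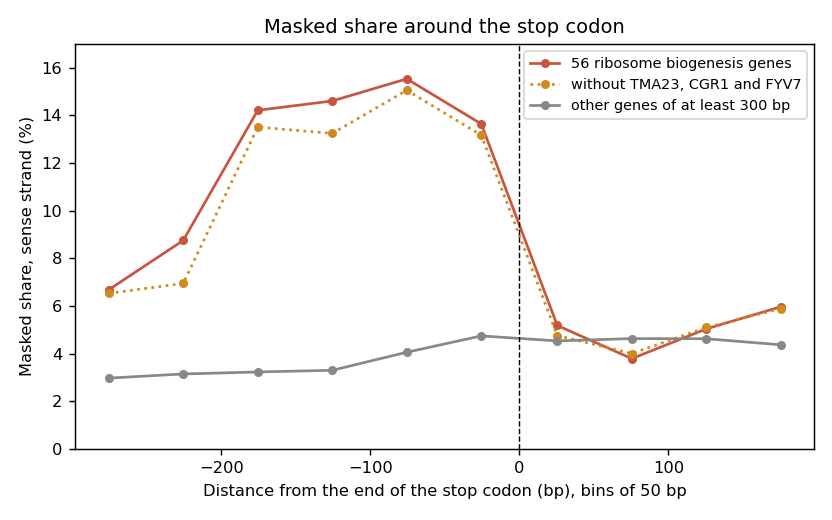
Masked share on the sense strand (y axis, percent) in bins of 50 bp by distance from the end of the stop codon (x axis, bp). The 56 genes reach 15.5% before the stop codon and drop to 5.18% in the first bin after it, next to 4.53% in other genes of at least 300 bp, and the course is similar without TMA23, CGR1 and FYV7.

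Single genes varied widely in this region. IMP4 had 41 of 200 positions masked, SRP40 37, NOP13 31 and NOP14 31. HAS1, ROK1, NOP7, LOC1 and RLP24 had 0, which makes 5 of 56 genes where 16.3% of all genes had none. More than 10% was masked in 9 of 56, where 13.2% of all genes passed this mark, a share close to the background. IMP4 and SRP40, with the most masked positions after the stop codon, had 3.78% and 3.85% of their coding sequences masked, and LOC1 and RLP24, with none after it, had 13.2% and 10.2%.

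Other genes of the same pathway had smaller shares. In a list of 91 further ribosome biogenesis factors, such as the UTP proteins, the median was 4.44%, 37 genes exceeded 5% and 5 exceeded 10%. PXR1, a nucleolar protein, had 14.8%, NHP2, a box H/ACA snoRNP protein, 14.0% and NOP6 11.1%. The pooled share of this list was 4.45%, between the 7.58% of the 56 genes and the 3.04% of all other genes, of which the list is a part. The 7 RNA polymerase I subunits had a median of 3.17%, and RPA34 stood at 11.8%. Cytosolic ribosomal protein genes had a lysine share close to that of the 56 genes, with a median of 11.0%, but a median masked share of 4.14% over 137 genes. Of their lysine codons, 83.7% were AAG, against 48.4% in the 56 genes. Ribosomal protein genes also had fewer glutamate codons, with a median of 5% against 10.2%. Their lysine pairs were fewer as well, at 1.35 against 1.95 per 100 codons. Which of these differences accounts for the lower masked share was not tested. The 10 histone genes had a median of 4.54% with 11.8% lysine codons.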

How the data were processed

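The deposited file lists runs of genomic positions by chromosome, start, end and strand of sacCer3, with a score of 0 in each line and no measured unit. Per the methods, the authors collected the positions by 2 criteria on the sequence (more than 4 As without C or T in 6 bp, or more than 12 As in 18 bp, each downstream) and subtracted them from their tracks. Libraries were not analysed here. All 296397 positions that met these criteria in RefSeq assembly R64 were present in the file on the same strand, and no run passed a chromosome end, so both share coordinates. The file held 655732 positions, and the rule behind those beyond the criteria was not determined, so the file was used as deposited.

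Coding sequences (the longest record per gene, stop codon included) were taken from the R64 annotation. Pooled shares count each position once per strand. Calculations used Python 3.11.15, numpy 2.4.6, scipy 1.17.1 and matplotlib 3.10.9. The functions were tested on simulated data, where 0 of 40000 positions differed. Members and lists were chosen with earlier results of these data known. All 56 genes were counted, and those named are the 12 highest and 6 lowest in masked share, the extremes of each role, the 6 longest runs, and the 4 highest for each end, the region after the stop codon and either side of the fit. Others, including the ends shown for CBF5, TMA23 and DBP3, the run of EBP2 and the genes named without masked positions, were chosen with their values in view. The sequence of 1 of the 6 longest runs is not reported here. Alternatives used the mask recomputed from the criteria, left out genes, restricted coding sequences or changed windows.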

Additional observations from a re-analysis of the deposited data

How the results depend on the processing

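Of 39 alternatives, 21 left a value within its counting interval or a count within 1.5 times, 17 moved it and 1 reversed it. The interval served as a yardstick only, because the counts are exact and masked positions come in runs. Some of the 21 could not change. The shortest coding sequence of the set, 363 bp, exceeded the minimum of 300 bp. No gene of the set shared coding positions with another on its strand, and no window after a stop codon met a same-strand coding sequence. Restrictions on these points left values of the 56 genes alone as they were. With the mask recomputed from the criteria as written, which selects fewer positions by construction, the share of the 56 genes was 2.93% against 1.17% in the other genes, a difference of 1.76 percentage points and the same ratio of 2.50. Under it 9 of the 56 genes exceeded 5% (1.21% of the other genes) and 0 exceeded 10% (8 other genes), the first part exceeded the middle parts by 0.70 percentage points and the last by 2.09, the 200 bp after the stop codon had 2.55% (0.0772 above the other genes), sense exceeded antisense by 2.71 and the median residual was 0.48. Without TMA23, CGR1 and FYV7, the share was 7.35%, 4.32 percentage points above the other genes, and sense exceeded antisense by 6.66. The last 100 bp exceeded the rest by 7.53 percentage points. Without NOP56, NOP58, CBF5 and TMA23, chosen after seeing the data, the last part exceeded the middle by 3.40. The first 100 bp after the stop codon had 4.48%, and the difference from the other genes reversed to -0.0597 percentage points. The cause was not tested. With glutamate codons in the fit, the median residual was 1.47. No paired analysis was possible because the list holds no samples. Coding sequences are not the gene bodies of the study, and without reads the signal lost at these positions is unknown.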

Other observations

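Among the adjacent lysine codon pairs of the 56 genes, the deposited mask and the criteria as written parted by codon choice. The pairs AAAAAA (86), AAAAAG (99) and AAGAAA (177) were preceded by a masked base in each case under both. The pair AAGAAG occurred 155 times, each time directly after a masked base of the deposited list, but only 8 of these bases met the criteria as written, or 5.16%. NOP58, which wrote 50 of its 77 lysine codons as AAG, had 10.4% of its coding sequence in the deposited mask and 3.39% under the criteria as written, and TMA23 had 20.8% and 8.49%. RRP15 kept a larger part, with 13.9% and 7.30%. The part kept did not follow AAG use in every gene. RRP36, with 17 AAG and 29 AAA codons, had 10.7% and 2.77%. SPB1, with 68 AAG and 44 AAA codons, had 7.17% and 3.52%.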
